A study of Mus musculus with 9 samples.

Results

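The 46 genes described here act in mitosis and chromosome segregation. They were chosen by symbol as G2/M genes and measured in RNA of long-term hematopoietic stem cells (LT-HSCs). All 46 were found among the 47643 genes of the count table, and all 46 passed the filter on low counts that left 18205 genes for testing. LT-HSCs, the quiescent cells at the top of the blood hierarchy, were sorted as Lin-cKit+Sca1+Flk2-CD48-CD150+ donor cells from irradiated mice that had received bone marrow of 1 of 3 genotypes. WT donors carried Mx1-Cre and intact PI3K genes. δKO donors had floxed Pik3ca and Pik3cb genes, a germline deletion of Pik3cd and no Cre, so they lack the p110δ catalytic subunit of class IA PI3K. TKO donors had the same alleles plus Mx1-Cre, so that pIpC, which switches on the Mx1 promoter, also removes p110α and p110β. Recipients of all 3 genotypes received 2 injections of 250 μg pIpC 48 hours apart, and marrow was taken 4 weeks later. The Mx1 promoter acts in all blood lineages and also outside blood, δKO cells alone lack Cre, and cells of 7 recipients per group were pooled before sorting. There were 3 libraries per genotype and 9 in all. Nothing in the labels shows that libraries of a genotype came from separate animals, so the tests measure the spread between libraries, which may be technical.

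The members cover the order of events in cell division. Cyclin-dependent kinase 1 with its A- and B-type cyclins drives entry into mitosis, helped by polo-like and aurora kinases. Condensins compact the chromosomes, kinetochores attach them to a spindle that kinesins build, and the spindle checkpoint holds the cell until all are attached. The anaphase-promoting complex (APC/C) then releases the sister chromatids, and cytokinesis parts the daughter cells. Most of these genes are transcribed in G2 and M phase, and adult LT-HSCs are known for dividing rarely. The design asks how loss of p110α and p110β in cells that already lack p110δ (TKO against δKO), loss of all 3 subunits (TKO against WT) and loss of p110δ alone (δKO against WT) relate to the levels of these RNAs. The first and second comparison share the TKO libraries, and the others share a control in the same way.

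Depth was 31300343 to 60386097 counts per library, with 18180 to 22703 genes detected. All 12 LT-HSC markers were detected, with a summed level of 1464 to 1819 CPM (the count relative to the TMM-scaled library size) in WT, 1511 to 3327 in δKO and 2205 to 2595 in TKO. The 8 B cell markers summed to at most 12.4 CPM in a library, and 3 or 4 of the 6 T cell markers were at 0 in all libraries of a genotype. Other lineage genes were present, with megakaryocyte markers at 166 to 569 CPM in sum and erythroid markers at 8.48 to 119 CPM. RNA of Flt3 (which encodes Flk2) and Cd48, used in the sort as negative markers, was at 7.06 to 115 and 5.82 to 23.2 CPM. Pik3cb was at 33.5, 25.5 and 33.9 CPM in TKO, below most other libraries (log2 fold change -1.13 against δKO). Pik3ca (0.03 against δKO) and Pik3cd (-0.68 in TKO against WT) were counted over the whole gene, and such counts include exons outside a deleted part. One δKO library has a column number that no label carries and is called the unnumbered δKO library. It and δKO replicate 1 had the fewest genes detected (18500 and 18180).

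Most of the mitotic genes had lower values in TKO than in δKO LT-HSCs, though none passed the adjusted threshold in edgeR. Of the 46 members, 44 had a negative log2 fold change in TKO against δKO, with a median of -0.70 (a level 1.62 times lower), where the median of all 18205 genes was -0.06. The values ran from -1.82 for Plk1 to 0.10 for Espl1. At an unadjusted p under 0.05 in edgeR's quasi-likelihood test, 22 members were lower and 0 higher, against 5.56% of all genes lower and 4.6% higher. All 3 TKO libraries lay below all 3 δKO libraries for 18 members and above them for 0, where 4.74% of all genes were non-overlapping in the lower direction and 6.98% in the higher. No member passed an adjusted p under 0.05 in edgeR, nor did any gene of the table (0% called), and the smallest adjusted p was 0.465. DESeq2's Wald test, run as an alternative, placed 11 members below an adjusted p of 0.05, all of them lower in TKO, against 1.26% of its tested genes lower and 2% higher. They were Plk1, Ccnb1, Nek2, Cenpa, Cenpe, Spc25, Kif23, Kif4, Smc2, Smc4 and Mki67. That count was 8 when DESeq2 was run after the filter on low counts (0.882% of all genes lower) and 3 when it was run on TKO and δKO alone (0.441%). In bulk RNA, fewer dividing cells and less RNA per dividing cell cannot be told apart. δKO replicate 1 decided the count of non-overlapping members, which was 35 without it, where 11.2% of all genes were separate in that direction. The count of 22 was 14 without the unnumbered δKO library (5.85% of all genes) and 14 without TKO replicate 3 (3.82%).

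Against WT, 44 of the 46 members also had a negative log2 fold change in TKO, with a median log2 fold change of -0.64 (1.56 times lower), where all genes had a median of 0.02. The 2 exceptions were Ncapd2 (0.00), a condensin subunit, and Pttg1 (0.55, 95% interval -0.85 to 1.94), which encodes securin, the inhibitor of separase. At an unadjusted p under 0.05, 17 members were lower and 0 higher, against 2.5% and 1.68% of all genes. All TKO libraries lay below all WT libraries for 27 members and above them for 0, against 7.47% and 6.88% of all genes. No member passed the adjusted threshold in edgeR (0.00549% of all genes did), and the members' smallest adjusted p was 1.00. DESeq2 called 1 member, Plk1 (adjusted p = 0.029), as lower, against 0.296% of its genes lower and 0.353% higher. Run on TKO and WT alone, DESeq2 called 11 members, all lower, against 1.75% of all genes lower and 1.63% higher in that fit. The count of 17 was 8 without WT replicate 1 (1.52% of all genes lower), 7 without WT replicate 2 (2.18%), 8 without TKO replicate 1 (1.31%) and 9 without TKO replicate 3 (2.61%).

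**Figure D1:**
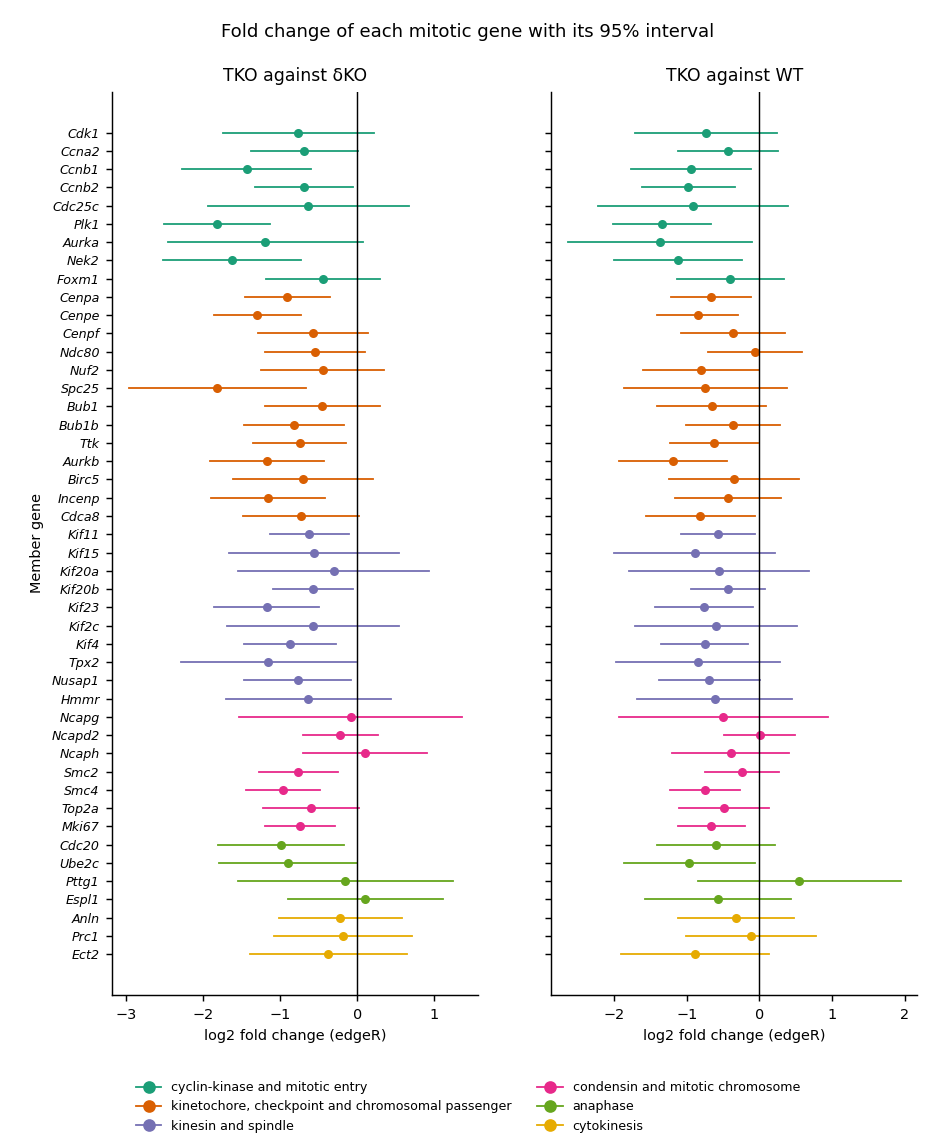
Log2 fold change of each of the 46 mitotic genes in TKO against δKO (left) and TKO against WT (right), from edgeR, with points for the estimate and bars for the 95% interval, coloured by the role of the gene. In both panels 44 of the 46 points lie left of 0, the farthest being Plk1 at -1.82 on the left, and many intervals cross 0.

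The members had no common direction in δKO against WT. In this comparison, 30 members had a positive and 16 a negative log2 fold change, with a median of 0.10 where all genes had 0.05. A single member passed an unadjusted p under 0.05, Smc2, a core subunit of condensin, which was higher in δKO (0.53 ± 0.23 SE), and 0 were lower, against 3.65% and 3.36% of all genes. Without WT replicate 2, WT replicate 3, the unnumbered δKO library, TKO replicate 1 or TKO replicate 3, this count was 0. It was 3, all higher, without WT replicate 1 (1.89% of all genes higher) or δKO replicate 1 (2.91%). It was 8 without δKO replicate 2, with 5 higher and 3 lower against 7.58% and 8.49% of all genes. The libraries did not overlap for 3 members that were higher in δKO (Cenpa, Ndc80 and Smc2) and 1 that was lower (Ccnb2), against 4.13% and 7.39% of all genes. This count of 4 became 10 without WT replicate 1 (6.91% of all genes higher and 12.5% lower), 11 without δKO replicate 1 (8.9% and 12.4%) and 13 without δKO replicate 2 (12% and 20.4%). No member passed an adjusted p under 0.05 in edgeR (0.00549% of all genes did) or in DESeq2 (0.378% of its genes higher and 0.667% lower). The 95% intervals differed in width. That of Cdk1 (-0.95 to 0.99) includes its estimate in TKO against WT (-0.74). Those of Mki67 (-0.38 to 0.54) and Plk1 (-0.19 to 1.15) lie above theirs (-0.66 and -1.34).

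The heat map of the 46 genes gives each library's level relative to the gene's mean. The level of the whole set in a library was taken as the median, over members, of log2(CPM + 0.5) less the gene's average across libraries. It was 0.39, 0.23 and -0.07 in WT replicates 1 to 3. It was -0.21 and 0.36 in δKO replicates 1 and 2 and 0.58 in the unnumbered δKO library. It was -0.51, -0.19 and -0.48 in TKO replicates 1 to 3. TKO replicates 1 and 3 were the lowest of the 9 libraries, and δKO replicate 1 lay just below TKO replicate 2, so TKO and δKO overlapped while TKO and WT did not. The members' CPM summed to 6929, 5923 and 5091 in WT, to 5130.3, 6387 and 8257 in δKO and to 3768, 4332 and 3669 in TKO, and on this sum, to which Mki67 contributes most, all 3 TKO libraries were below the other 6.

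**Figure D2:**
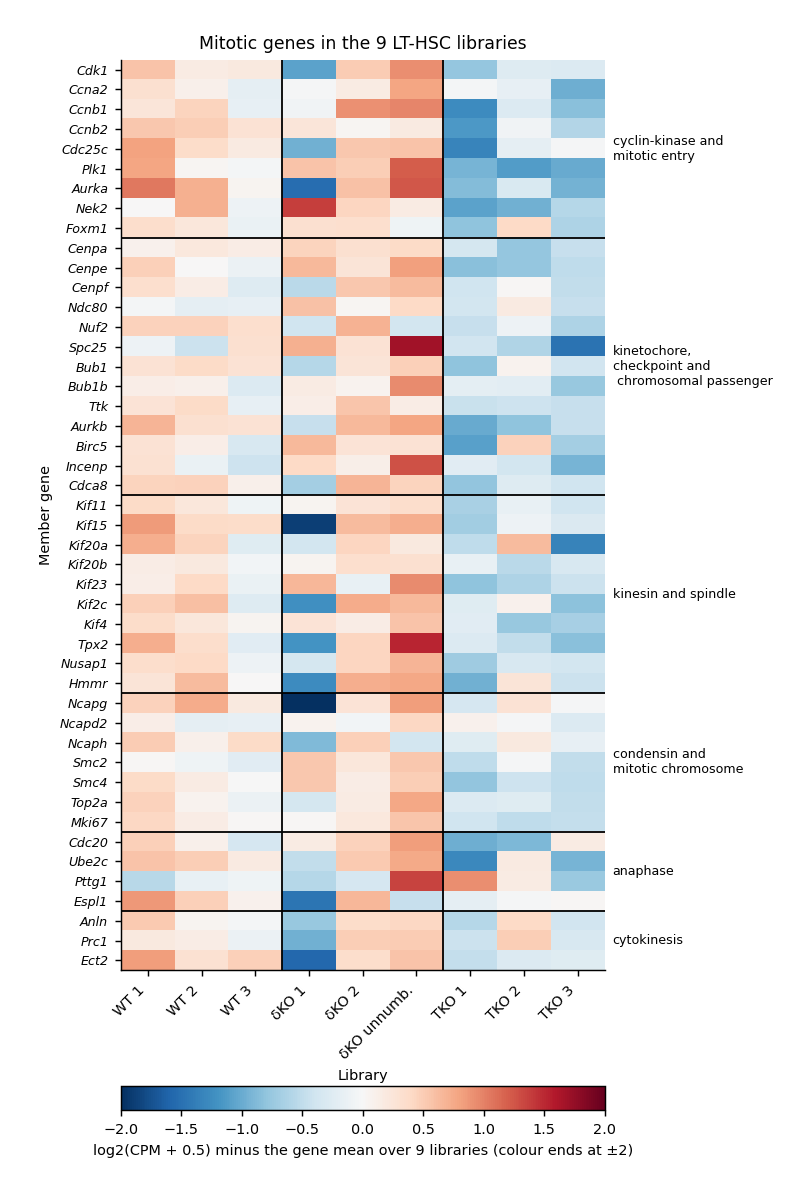
Heat map of the 46 mitotic genes (rows, by role) in the 9 libraries (columns), where colour is log2(CPM + 0.5) minus the gene's mean over the libraries. TKO replicates 1 and 3 are below the mean for 44 of the 46 genes each, while δKO replicate 1 mixes genes near its group's top, such as Nek2 and Cenpe, with genes at the lowest level of all libraries, such as Kif15 and Ect2.

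Within a genotype, the same library was the highest or the lowest for most members, but not for all of them. Within δKO, replicate 1 was the lowest library for 30 members and the highest for 7, and the unnumbered library was the highest for 30. Within TKO, replicate 2 was the highest for 26 members and the lowest for 5. Within WT, replicate 1 was the highest for 31 and replicate 3 the lowest for 38. The median standard deviation between libraries of a genotype, on the log2(CPM + 0.5) scale, came to 0.27 for the members in WT, with 0.58 in δKO and 0.29 in TKO. For all genes tested the values were 0.39, 0.74 and 0.50. The δKO libraries were thus the most variable, for these genes as for the table as a whole. In δKO replicate 1, Kif15, a spindle kinesin, was at 34.5 CPM against 199 and 212 CPM in the other δKO libraries, and Ncapg, a condensin subunit, at 2.95 against 22.4 and 33.2 CPM.

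Summed levels of neutrophil genes were lowest in the libraries with the lowest mitotic levels, but single genes were not all ordered so. The 10 neutrophil genes fixed as markers, among them Elane and Mpo for granule enzymes of early myeloid cells, summed to 5555 to 12868 CPM in WT, 277 to 12803 CPM in δKO and 170 to 3413 CPM in TKO. All 10 were detected and none was at 0 in all libraries of a genotype. The 4 libraries with the lowest sums (170 CPM in TKO replicate 1, 277 in δKO replicate 1, 961 in TKO replicate 3 and 3413 in TKO replicate 2) were the 4 with the lowest level of the mitotic genes. The sum joins genes that varied differently. Mpo, an early gene, was at 8958, 3233 and 1693 CPM in WT, 99.2, 3032 and 7226 CPM in δKO and 59.9, 1888 and 428 CPM in TKO. It was lowest in the 3 libraries with the lowest mitotic level, and WT replicate 3 (mitotic level -0.07) lay below TKO replicate 2. Ngp, a late granule gene, was at 164, 363 and 3844 CPM in WT, 28.5, 296 and 824 CPM in δKO and 41.2, 155 and 161 CPM in TKO, and it was the largest part of the 11224 CPM of WT replicate 3. Ltf, another late gene, was lowest of all libraries in WT replicate 1 (10.9 CPM), where the mitotic level was 0.39. The 6 monocyte and macrophage genes summed to 193 to 1062 CPM in WT, 181 to 339 CPM in δKO and 185 to 610 CPM in TKO, highest in WT replicate 3 and TKO replicate 2. Mitochondrial ribosomal RNA took 8.64%, 9.63% and 6.88% of counts in TKO replicate 1, δKO replicate 1 and TKO replicate 3, the 3 lowest libraries, and 14.4% to 17.1% in the others. The LT-HSC markers were highest in δKO replicate 1 (3327 CPM) and TKO replicate 3 (2595 CPM). The part of myeloid cells and of RNA quality in the differences was not tested.

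**Figure D3:**
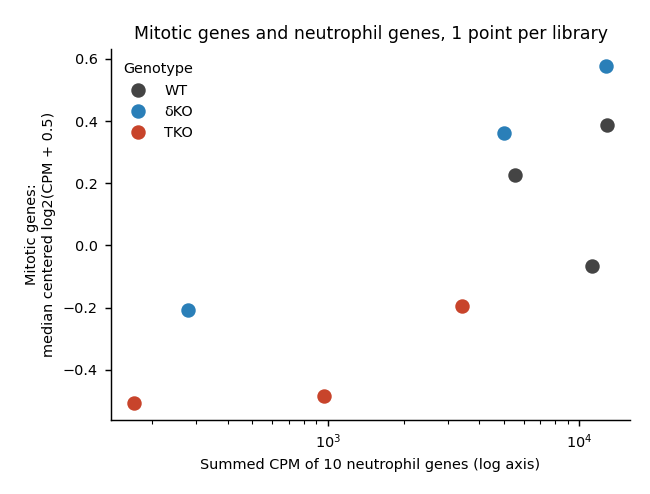
Level of the 46 mitotic genes (vertical axis, median centered log2(CPM + 0.5)) against the summed CPM of 10 neutrophil genes (horizontal log axis), 1 point per library coloured by genotype. The 3 TKO libraries and δKO replicate 1 lie at the lower left, from 170 to 3413 CPM, and the other 5 libraries at 5030.0 CPM and above.

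The promoters of the members share sequence. Many genes transcribed in G2 and M phase carry the cell cycle genes homology region (CHR), with the letters TTTGAA and bound by the DREAM complex and by MuvB with MYB and FOXM1, and CCAAT boxes bound by NF-Y. Both were searched on either strand from 250 bases before to 50 after the RefSeq start (GRCm38.p6), in which 38 of the 46 members had an entry. TTTGAA was in 29 of the 38 (76.3%), in 12.4% of the promoters of the genes tested that had an entry and in 18.1% of all 27025 promoters. CCAAT was in 28 of the 38 (73.7%) against 38.3% and 37.9%. Both elements together were in 24 (63.2%) against 5.08% and 7.12%. TTTGAA was in 47.7% of the promoters of other mitotic genes outside the set, 15.4% of those of DNA replication genes and 10.5% of those of cohesin and APC/C core genes. In TKO against δKO, the 29 members with TTTGAA had a median log2 fold change of -0.69 and the 9 without it -0.70. A match is a description of the sequence and not of binding.

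The following stretches are shown because they belong to 5 of the genes most used as marks of dividing cells, and for 4 of them they hold both elements. They run 5′ to 3′ in the direction of the gene, from 150 bases before the RefSeq start to the start or to the first annotated exon base, with the CHR, the CCAAT box and their reverse complements in capitals.
Cdk1, chr10:69352939-69353062 (minus strand): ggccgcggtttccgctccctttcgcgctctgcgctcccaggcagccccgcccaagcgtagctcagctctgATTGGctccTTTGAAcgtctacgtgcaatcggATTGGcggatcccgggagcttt
Cdc20, chr4:118437353-118437493 (minus strand): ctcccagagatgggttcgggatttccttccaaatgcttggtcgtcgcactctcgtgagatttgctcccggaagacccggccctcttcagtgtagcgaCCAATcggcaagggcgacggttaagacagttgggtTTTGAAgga
Mki67, chr7:135716380-135716529 (minus strand): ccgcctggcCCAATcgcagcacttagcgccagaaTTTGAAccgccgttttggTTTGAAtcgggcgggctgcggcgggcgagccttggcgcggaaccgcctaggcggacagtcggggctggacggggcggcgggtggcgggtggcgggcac
Top2a, chr11:99024190-99024339 (minus strand): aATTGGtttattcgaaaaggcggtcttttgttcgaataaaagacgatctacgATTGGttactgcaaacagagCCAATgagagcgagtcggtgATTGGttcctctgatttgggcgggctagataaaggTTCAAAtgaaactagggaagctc
Plk1, chr7:122159285-122159434 (plus strand): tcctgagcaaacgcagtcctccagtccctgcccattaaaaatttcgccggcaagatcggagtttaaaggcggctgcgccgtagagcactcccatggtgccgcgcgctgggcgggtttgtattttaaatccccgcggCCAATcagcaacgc
In Cdc20 and Top2a the CHR began 18 and 23 bases before the start, and CCAAT matches lay 53 bases (Cdc20) and 58 bases (Top2a) before it. Cdk1 had a CHR at 71 bases with a reverse CCAAT on either side and a CHR at 15 bases, past the stretch shown, and Mki67 had 2 CHR matches at 116 and 98 bases. The CHR of Plk1 lay after its start, outside the stretch shown, and a CCAAT match began 14 bases before the start.

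The 9 genes of mitotic entry (Cdk1, Ccna2, Ccnb1, Ccnb2, Cdc25c, Plk1, Aurka, Nek2 and Foxm1) all had negative values in TKO, with a median log2 fold change of -0.77 against δKO and -0.94 against WT. At an unadjusted p under 0.05, 4 were lower against δKO and 5 against WT, and none was higher, where 5.56% and 2.5% of all genes were lower. Plk1 (ENSMUSG00000030867.7, chr7:122159439-122169873) encodes polo-like kinase 1, which drives mitotic entry, spindle assembly and cytokinesis. Plk1 was at 122, 72.6 and 68.5 CPM in WT replicates 1 to 3, 105, 98.7 and 163 CPM in δKO and 36.7, 32.1 and 34.9 CPM in TKO. The 3 TKO values were close together and below all 6 others, and the fold change against δKO was the largest of the 46 members (log2 fold change -1.82 ± 0.32 against δKO and -1.34 ± 0.31 against WT). Its 95% interval against δKO was -2.51 to -1.13, its edgeR adjusted p was 0.465, and DESeq2 gave an adjusted p of 9e-05. Gm44985, an opposite-strand transcript, shares 7.09% of the exon length of Plk1, and the amplification kit does not mark strand.

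Ccnb1 (ENSMUSG00000041431.16, chr13:100778650-100786570), cyclin B1, the partner of Cdk1 in mitosis, was at 50.1, 57.5 and 37.8 CPM in WT, 40.2, 80.3 and 84.0 CPM in δKO and 17.4, 34.7 and 23.6 CPM in TKO. All TKO values were below the others (log2 fold change -1.43 ± 0.38 against δKO and -0.94 ± 0.38 against WT). Cdk1 (ENSMUSG00000019942.12, chr10:69335146-69352938), the mitotic kinase itself, was at 59.9, 44.8 and 45.9 CPM in WT, 18.9, 57.4 and 76.7 CPM in δKO and 23.2, 33.6 and 33.3 CPM in TKO. Here δKO replicate 1 lay below all TKO libraries, and the difference was within the spread (log2 fold change -0.77 ± 0.45 against δKO and -0.74 ± 0.45 against WT). Without that library the groups were separate, as they were against WT.

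Nek2 (ENSMUSG00000026622.15, chr1:191821444-191833050), a kinase of centrosome separation, was at 32.6, 53.1 and 30.2 CPM in WT, 84.7, 43.6 and 36.3 CPM in δKO and 15.1, 16.4 and 21.7 CPM in TKO. It was highest in δKO replicate 1, the δKO library that was lowest for most members, and TKO was below all other libraries (log2 fold change -1.63 ± 0.41 against δKO and -1.12 ± 0.40 against WT). Gm38037, an antisense gene, shares 6.6% of its exon length. Foxm1 (ENSMUSG00000001517.14, chr6:128362967-128376146), a transcription factor of G2/M genes, was at 99.5, 91.2 and 71.3 CPM in WT, 97.6, 98.6 and 73.5 CPM in δKO and 44.5, 103 and 50.6 CPM in TKO. TKO replicate 2 was the highest of all 9 libraries and the other TKO libraries the lowest, so the groups overlapped (log2 fold change -0.45 ± 0.34 against δKO and -0.40 ± 0.34 against WT). The other 4 members of the group ran from -1.20 (Aurka, aurora kinase A) to -0.64 (Cdc25c, a phosphatase that activates Cdk1) against δKO and from -1.37 (Aurka) to -0.43 (Ccna2, cyclin A2) against WT. Over the whole group, TKO lay below all libraries of δKO for 5 members and of WT for 7, as did 4.74% and 7.47% of all genes.

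**Figure D4:**
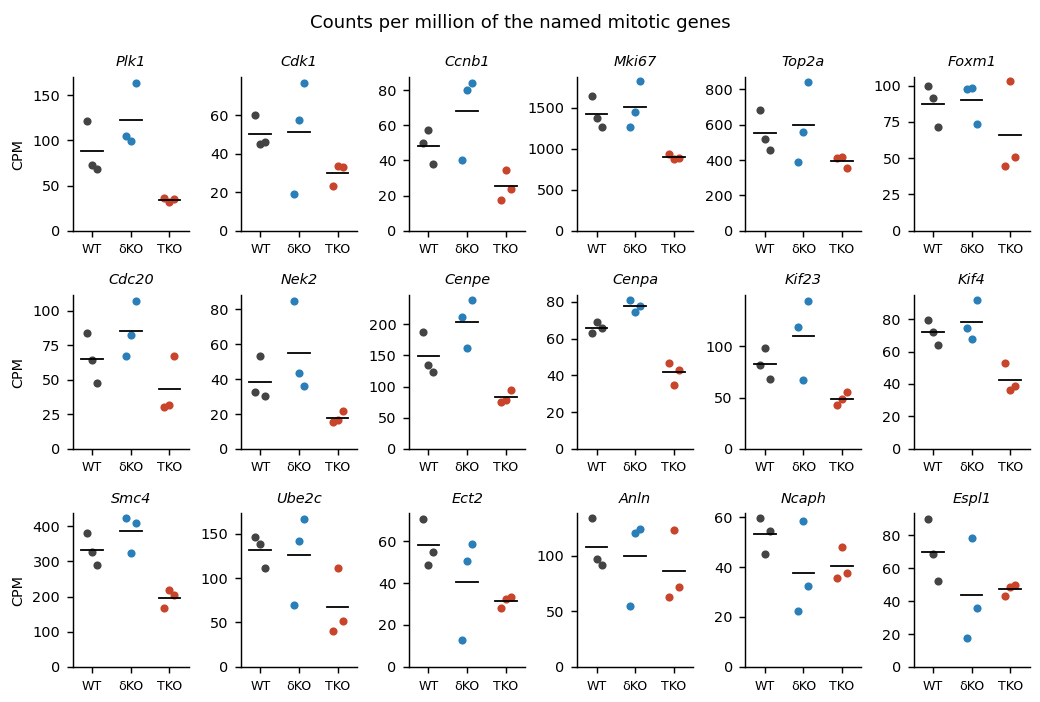
CPM of the 18 named mitotic genes in each library (points) by genotype, with the group mean as a line and each vertical axis starting at 0. Plk1, Cenpe, Cenpa, Smc4 and Mki67 have 3 TKO points close together and below all others, whereas Foxm1, Anln and Cdc20 have 1 high TKO library, and in Ect2, Ncaph and Espl1 a δKO library is the lowest.

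Among the 13 kinetochore, checkpoint and chromosomal passenger genes, all had negative values in TKO against δKO (median -0.75) and against WT (-0.66). At an unadjusted p under 0.05, 7 were lower against δKO and 6 against WT, and none was higher, where 5.56% and 2.5% of all genes were lower. Cenpe (ENSMUSG00000045328.11, chr3:135212537-135273611), the kinetochore kinesin that brings chromosomes to the spindle centre, was at 188, 135 and 124 CPM in WT, 211, 162 and 238 CPM in δKO and 75.5, 78.6 and 94.7 CPM in TKO. The highest TKO value was below the lowest value of both controls (log2 fold change -1.30 ± 0.26 against δKO and -0.85 ± 0.25 against WT). Cenpa (ENSMUSG00000029177.9, chr5:30666777-30674830), the histone that marks centromeres, was at 63.1, 69.0 and 65.8 CPM in WT, 81.3, 74.7 and 78.0 CPM in δKO and 46.8, 34.8 and 43.1 CPM in TKO. Its libraries agreed closely within each genotype, with the order TKO, WT and δKO and no overlap between any of them (log2 fold change -0.91 ± 0.25 against δKO and -0.67 ± 0.25 against WT). δKO against WT was 0.24 with a 95% interval of -0.30 to 0.79, which includes 0. Spc25, of the Ndc80 complex, had the second-largest fold change against δKO (-1.82, 95% interval -2.96 to -0.67), with 51.3 CPM in the unnumbered δKO library and 5.32 CPM in TKO replicate 3. Ndc80 itself had -0.55 against δKO and -0.06 against WT, with overlapping libraries in both. Aurora kinase B (Aurkb, -1.17 and -1.19) and its partners Incenp (-1.16 and -0.43), Cdca8 (-0.73 and -0.81) and Birc5 (-0.70 and -0.35) form the chromosomal passenger complex. For Birc5, TKO replicate 2 (51.6 CPM) was within the δKO range. Of the checkpoint kinases, Ttk had -0.75 and -0.63, Bub1b -0.82 and -0.37 and Bub1 -0.45 and -0.66. TKO was separate from and below δKO for 6 of the 13 genes and WT for 7, against 4.74% and 7.47% of all genes.

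The 10 kinesin and spindle genes all had negative values as well, with medians of -0.63 against δKO and -0.65 against WT. Of them, 6 and 3 were lower at an unadjusted p under 0.05, against 5.56% and 2.5% of all genes. Kif23 (ENSMUSG00000032254.9, chr9:61915905-61946774), a kinesin of the central spindle, was at 82.1, 98.4 and 68.1 CPM in WT, 119, 67.6 and 145 CPM in δKO and 42.7, 48.5 and 55.2 CPM in TKO. TKO lay below all other libraries (log2 fold change -1.18 ± 0.31 against δKO and -0.76 ± 0.31 against WT). Kif4 (ENSMUSG00000034311.3, chrX:100625737-100727214), a chromosome-bound kinesin, was at 79.3, 72.3 and 63.8 CPM in WT, 74.7, 68.0 and 91.9 CPM in δKO and 52.7, 36.2 and 38.7 CPM in TKO. Here too no TKO library reached another group (log2 fold change -0.88 ± 0.27 against δKO and -0.76 ± 0.27 against WT). Pdzd11 shares 15.1% of the exon length of Kif4 on the opposite strand. Tpx2, which nucleates spindle microtubules, ranged from 74.9 to 496 CPM within δKO, and its 95% interval against δKO was -2.29 to -0.02. The other 8 members ran from -1.15 (Tpx2) to -0.31 (Kif20a) against δKO and from -0.89 (Kif15) to -0.43 (Kif20b) against WT. TKO was separate from and below δKO for 4 of the 10 genes and WT for 7, against 4.74% and 7.47% of all genes.

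Condensin and mitotic chromosome genes had medians of -0.60 against δKO and -0.49 against WT, and 6 of 7 had negative values in each. Mki67 (ENSMUSG00000031004.7, chr7:135689784-135716361), whose protein Ki-67 coats mitotic chromosomes and is the usual mark of cycling cells, was at 1645, 1377 and 1264 CPM in WT, 1263, 1444 and 1825 CPM in δKO and 941, 876 and 888 CPM in TKO. The TKO libraries were close together and below all others (log2 fold change -0.74 ± 0.21 against δKO and -0.66 ± 0.21 against WT). Smc4 (ENSMUSG00000034349.14, chr3:69004738-69034623), a core subunit of both condensins, was at 382, 328 and 288 CPM in WT, 424, 323 and 409 CPM in δKO and 168, 218 and 205 CPM in TKO. TKO was again separate (log2 fold change -0.97 ± 0.22 against δKO and -0.76 ± 0.22 against WT). Top2a (ENSMUSG00000020914.17, chr11:98992943-99024189), the topoisomerase that untangles replicated DNA, was at 682, 522 and 458 CPM in WT, 389.8, 557 and 845 CPM in δKO and 409, 419.7 and 354 CPM in TKO. TKO was below WT, and δKO replicate 1 fell among the TKO values (log2 fold change -0.60 ± 0.28 against δKO and -0.49 ± 0.28 against WT). Ncaph (ENSMUSG00000034906.15, chr2:127103809-127133954), of condensin I, was 1 of the 2 members with a positive value against δKO, at 59.7, 45.3 and 54.6 CPM in WT, 22.5, 58.3 and 32.3 CPM in δKO and 35.5, 48.0 and 37.4 CPM in TKO. The δKO values spanned those of TKO (log2 fold change 0.10 ± 0.37 against δKO and -0.40 ± 0.37 against WT), and without δKO replicate 1 the value against δKO was -0.17. Ncapd2 (-0.22) and Ncapg (-0.09), of the same complex, had intervals that included 0, so in condensin I the subunits Ncaph, Ncapd2 and Ncapg had no detectable difference while Smc2 (-0.77) and Smc4 (-0.97) had intervals below 0. Against WT only Smc4 had an interval below 0 among these 5 subunits, and Smc2 was at -0.24 (95% interval -0.74 to 0.27). Whether these subunits differ from each other was not tested.

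Of the 4 anaphase genes, Cdc20 (ENSMUSG00000006398.15, chr4:118432901-118437352), the activator of APC/C, was at 83.6, 64.5 and 47.4 CPM in WT, 66.9, 82.6 and 107 CPM in δKO and 30.3, 31.9 and 67.2 CPM in TKO. TKO replicate 3 lay at the level of δKO replicate 1 and WT replicate 2, and the other TKO libraries below all others (log2 fold change -0.99 ± 0.37 against δKO and -0.59 ± 0.37 against WT). Ube2c (ENSMUSG00000001403.13, chr2:164769898-164778822), the ubiquitin-conjugating enzyme of APC/C, was at 146, 138 and 112 CPM in WT, 69.6, 142 and 166 CPM in δKO and 40.0, 111 and 51.6 CPM in TKO. TKO replicate 2 was within the δKO range (log2 fold change -0.90 ± 0.41 against δKO and -0.97 ± 0.41 against WT), and Tnnc2 shares 22.8% of the exon length on the opposite strand. Espl1 (ENSMUSG00000058290.3, chr15:102296266-102324357), which encodes separase, the protease that opens cohesin, was the other member with a positive value against δKO, at 89.8, 68.4 and 52.0 CPM in WT, 17.6, 78.5 and 35.6 CPM in δKO and 43.4, 48.4 and 49.9 CPM in TKO. The δKO libraries ranged on both sides of TKO (log2 fold change 0.10 ± 0.46 against δKO and -0.57 ± 0.46 against WT), and without δKO replicate 1 the value against δKO was -0.28. Pttg1 was low throughout, at 8.63, 11.6 and 12.2 CPM in WT, 8.62, 10.2 and 33.9 CPM in δKO and 25.1, 14.6 and 7.57 CPM in TKO, with no order between genotypes.

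The 3 cytokinesis genes had the smallest median against both controls (-0.22 and -0.32). None had an unadjusted p under 0.05, where 5.56% and 2.5% of all genes were lower, and 3 genes are too few to read a share from. Ect2 (ENSMUSG00000027699.19, chr3:27097222-27153878), the exchange factor that places the contractile ring, was at 70.3, 48.7 and 54.6 CPM in WT, 12.8, 50.3 and 58.4 CPM in δKO and 28.1, 32.3 and 33.1 CPM in TKO. All TKO values were below WT, whereas δKO replicate 1 was lower still (log2 fold change -0.38 ± 0.46 against δKO and -0.89 ± 0.47 against WT). Anln (ENSMUSG00000036777.7, chr9:22332012-22389188), anillin, a scaffold of the ring, was at 134, 96.9 and 91.2 CPM in WT, 55.0, 120.3 and 124 CPM in δKO and 62.4, 123 and 71.6 CPM in TKO. TKO replicate 2 matched the upper δKO libraries (log2 fold change -0.22 ± 0.37 against δKO and -0.32 ± 0.37 against WT). Prc1, a cross-linker of the central spindle, had -0.19 and -0.12. A difference between the groups of members was not tested.

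Levels were also set per kilobase of exon, which allows genes to be compared. In WT, Mki67 had the highest level (142 ± 19.4 CPM per kb, SD, n = 3), followed by Ccnb2 (75.3 ± 6.60), Smc4 (63.9 ± 9.01) and Top2a (61.5 ± 12.8), of which the last 3 did not differ beyond their spread. The lowest were Cdc25c (3.34 ± 0.795) and Ncapg (3.66 ± 0.708). In TKO, Mki67 was again first (89.6 ± 3.43 CPM per kb), and Plk1 was at 15.7 ± 1.04 against 39.9 ± 13.5 in WT and 55.5 ± 16.2 in δKO. Exons of 15 of the 46 members overlap those of another gene, for 12 of them on the opposite strand, and such reads cannot be assigned without strand.

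Most mitotic genes outside the set also had lower values in TKO, and none passed the adjusted threshold in edgeR. Of 78 other mitotic genes tested (further kinetochore, kinesin, condensin II and cyclin-kinase genes), 67 had a negative log2 fold change in TKO against δKO (median -0.58) and 67 against WT (median -0.49). At an unadjusted p under 0.05, 24 and 11 were lower (30.8% and 14.1%, against 5.56% and 2.5% of all genes) and 0 higher. The 3 with the smallest p against δKO were Knl1, a kinetochore scaffold (-0.96), Cep55, of abscission (-1.46), and Dlgap5, of the spindle (-0.93). Knl1 was at 117, 116 and 86.0 CPM in WT, 96.4, 112 and 136 CPM in δKO and 51.9, 68.0 and 57.0 CPM in TKO, so TKO did not overlap either control. The 23 cohesin and APC/C core genes, which act in the same events but are expressed throughout the cycle, had medians of -0.16 and -0.04, and 1 (Rad21, the cohesin subunit that separase cuts) and 0 were lower at an unadjusted p under 0.05, a share of 4.35% against δKO that is below that of all genes (5.56%). The 32 DNA replication genes had medians of -0.27 and -0.06, with 5 (15.6%) and 1 (3.12%) lower and 0 higher, against 5.56% and 2.5% of all genes lower. The 3 with the smallest p against δKO were parts of the replicative helicase, Cdc45 (-1.29), Mcm5 (-0.63) and Gins3 (-1.86). These lists are set beside the members as descriptions, and the difference between lists was not tested.

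**Figure D5:**
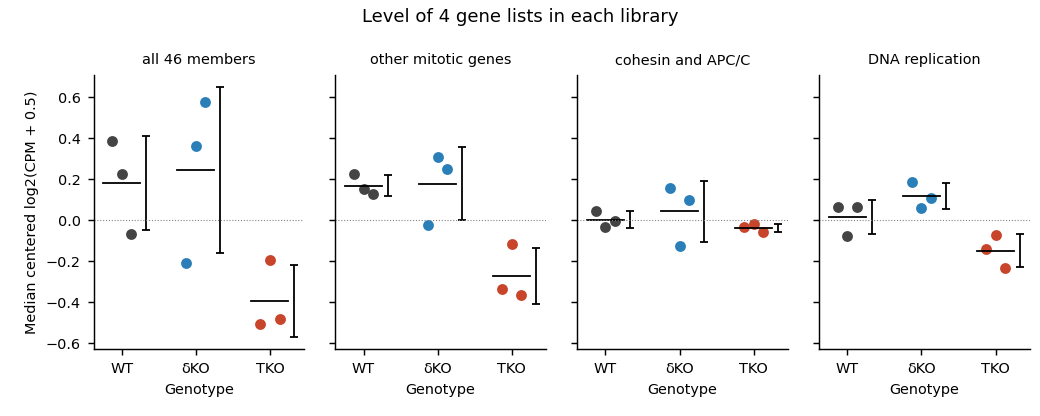
Median centered log2(CPM + 0.5) of the 46 members and of 3 other gene lists in each library (points), with the group mean (line) and SD over 3 libraries (bar). The mitotic lists are lowest in TKO replicates 1 and 3, at -0.51 and -0.48 for the members. The DNA replication list is also lowest there, at -0.14 and -0.23, while the cohesin and APC/C list stays between -0.12 and 0.16 in all libraries.

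Inhibitors of cyclin-dependent kinases did not move uniformly. Cdkn1a (p21) was at 59.7, 13.1 and 59.1 CPM in WT, 37.0, 11.7 and 43.6 CPM in δKO and 16.8, 21.5 and 39.4 CPM in TKO, with groups overlapping. Cdkn1b (p27) was at 44.7, 53.3 and 63.7 CPM in WT, 96.8, 65.9 and 43.2 CPM in δKO and 58.5, 73.9 and 61.0 CPM in TKO, also overlapping. Cdkn1c (p57), an inhibitor known for quiescence of LT-HSCs, was at 0.806, 1.16 and 3.22 CPM in WT, 0.558, 2.49 and 3.94 CPM in δKO and 1.68, 26.6 and 3.65 CPM in TKO. Its log2 fold change of 2.19 against δKO and 2.62 against WT came with 1 high value, in TKO replicate 2, the TKO library with the highest mitotic level, while the other TKO libraries were within the range of the controls. The adjusted p in edgeR was 0.54 against δKO.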

How the data were processed

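RNA of sorted donor LT-HSCs was extracted (PicoPure), amplified (Ovation RNA-Seq System V2, which does not mark strand) and sequenced in 2 technical runs per library. Per the labels and the submitters' processing notes, the authors trimmed reads with Trim Galore 0.3.7, checked them with FastQC 0.11.4 and aligned them to mm10 with STAR 2.5.1b. They deposited raw counts per gene for 9 libraries and a normalized signal, which in each of 8 columns matched by name equals the raw count divided by a constant. How runs were joined and the annotation release are not given in the sources used here.

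The deposited counts were kept where edgeR's filterByExpr allowed (minimum count 10, minimum total 15), scaled with TMM factors and fitted in edgeR 4.0.16 (R 4.3.3; limma 3.58.1) with glmQLFit to all 9 libraries, a mean for each genotype and without a block (6 residual degrees of freedom). Tests were two-sided, with Benjamini-Hochberg adjustment over all 18205 genes. A standard error is the log2 fold change divided by the square root of F. DESeq2 1.42.0 was the alternative tool. Both tools were run on data simulated for TKO against δKO with known changed genes, where DESeq2 made more false calls than edgeR. Coordinates, exon lengths and overlaps are from GENCODE vM21 (GRCm38, the assembly of mm10), in which 47224 identifiers matched without version, and promoters from RefSeq (GRCm38.p6). Figures were drawn with matplotlib 3.10.9.

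Values in every library are given for 7 common marks of dividing cells, for the 2 members of each role with the smallest p in TKO against δKO, and for members of opposite sign there. From each further list the 3 genes with the smallest p were named, plus 3 inhibitors of cyclin-dependent kinases. Other members named with values, the promoters printed and the comparison by promoter letters were chosen after their values were seen. The members, roles and lists were chosen with earlier results of these data known. Alternatives were other scaling factors, other filters, a replicate block, DESeq2, only the groups compared, genes detected as a covariate, voom with sample weights, the authors' normalized signal as log2(value + 1) in limma, and leaving out each library. DESeq2 after the filter was added after seeing the data.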

Additional observations from a re-analysis of the deposited data

How the results depend on the processing

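The median log2 fold change of the 46 genes stayed negative in TKO against δKO (-0.87 to -0.48) and in TKO against WT (-0.79 to -0.59) under the alternatives run, and ran from -0.23 to 0.25 in δKO against WT. Single-gene values were recomputed under 21 alternatives for the 18 genes named with every library, which gave 378 per comparison. Of these, 0 changed sign in TKO against WT, 11 in TKO against δKO and 34 in δKO against WT. Many of the 18 were chosen for the smallest p in TKO against δKO, so their signs do not stand for those of all 46 members. No member passed an adjusted p under 0.05 in edgeR, voom or limma. DESeq2 called 11 members as lower in TKO against δKO on all genes, 8 after the filter on low counts and 3 on these groups alone, and 1, 1 and 11 in TKO against WT, where 26 had an unadjusted p under 0.05 in the last fit (4.95% of all genes lower). Upper-quartile factors moved the all-gene median by 0.14 (TKO against δKO) and -0.15 (δKO against WT), and left 14 members with an unadjusted p under 0.05 in the former. With voom and sample weights, 29 members were lower at an unadjusted p under 0.05 in TKO against WT, where 6.17% of all genes were. In δKO against WT that count was 2 with RLE factors and in the 3 DESeq2 fits, and 0 with upper-quartile factors, with at least 10 counts in every library, with genes detected as a covariate and with a replicate block. Leaving out each library gave 14 to 32 members with an unadjusted p under 0.05 for TKO against δKO, then 7 to 23 (TKO against WT) and 0 to 8 (δKO against WT). The share of all genes at that p differed between fits as well. Counts in this paragraph that stand without that share are therefore not a result about the members. Members whose libraries do not overlap numbered 16 to 35 in TKO against δKO, 26 to 38 in TKO against WT and 3 to 13 in δKO against WT over all alternatives run (as libraries were left out, 18 to 35, 26 to 38 and 4 to 13). Fewer libraries also overlap less often for all genes, so the upper ends of these ranges are not a result about the members.

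Deviations from the genotype mean had correlations from -0.076 to 0.10 between same-numbered libraries. Between libraries with different numbers they ran from -0.095 to 0.047. Such deviations cannot settle whether libraries with the same number were handled together, and a shared batch was not tested. With a replicate block, which leaves out the unnumbered δKO library, 10 members had an unadjusted p under 0.05 in TKO against δKO (median -0.48) and 19 in TKO against WT, and the median in δKO against WT was -0.23. The counts of 10 and 19 are given without the share of all genes in that fit, so they are not a result about the members. With the block, 37 members had a negative and 9 a positive log2 fold change in TKO against δKO, where the fit without a block had 44 and 2. In TKO against WT, 45 were negative and 1 positive. Single signs were followed only for the 18 genes named with every library. Of these, Ect2 (0.13) and Anln (0.11) turned positive in TKO against δKO. In δKO against WT, Cdk1 (-0.56), Mki67 (-0.12), Top2a (-0.33) and Kif4 (-0.077) turned negative.

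Among the 18 named genes, the other signs that turned belonged to values near 0. In TKO against δKO these were Ncaph and Espl1, at -0.045 and -0.13 with genes detected as a covariate, at -0.20 and -0.13 with voom, and at -0.17 to 0.55 and -0.28 to 0.82 as libraries were left out. In δKO against WT, upper-quartile factors gave Cdk1 -0.096, Mki67 -0.070, Top2a -0.034, Foxm1 -0.11 and Kif4 -0.039. At least 10 counts in every library gave Cdk1 -0.041, Mki67 -0.0040 and Foxm1 -0.046. Genes detected as a covariate gave Top2a -0.037, Foxm1 -0.18 and Smc4 -0.017, voom gave Ube2c 0.060 and Anln 0.089, and the normalized signal gave Cdk1 -0.16. Leaving out libraries gave Anln -0.29 to 0.19, Cdk1 -0.40 to 0.42, Foxm1 -0.084 to 0.17, Kif4 -0.011 to 0.22, Mki67 -0.080 to 0.19, Top2a -0.23 to 0.34 and Ube2c -0.32 to 0.23. The cause of these changes was not tested. The lowest count of a member in a library was 74. Amplified reads are not independent molecules, and the sampling of the input RNA was not separated from the spread between libraries.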
